A study of Arabidopsis thaliana with 12 samples.

Results

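GIGANTEA (GI, AT1G22770 on chromosome 1) and CCR-LIKE (CCL, AT3G26740 on chromosome 3) are genes of Arabidopsis thaliana whose transcripts follow a daily rhythm. They are 2 of the 3602 genes with a probe set of their own in the platform annotation. All probe sets paired with either gene alone were taken, which gave 5 of the 8247 other than controls, 4 for GI and 1 for CCL. Both genes were chosen on their fall after the change of day length, as measured on these same arrays. The sizes of the falls are therefore given as a description, without a test, and the tests below concern differences between genotypes.

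The arrays were hybridised with total RNA from shoot apices of 4 genotypes at 3 time points, 12 arrays in all. Plants of every genotype were raised for 30 days at 21 °C in short days (9 h light, 15 h dark) before a transfer to long days (16 h light, 8 h dark). Apices were taken 0, 2 and 4 days after the transfer, and the hour of sampling is not given. FRI(Sf-2)-flc-3 combines an active FRIGIDA allele, introgressed from the accession San Feliu-2, with a deletion in FLOWERING LOCUS C. fri(Col)-flc-3 carries that deletion with the FRIGIDA allele of Col-0. FRI(Sf-2)-FLC(Col) carries the introgressed allele with the intact FLC of Col-0, and fri(Col)-FLC(Col) is the Col-0 wild type. All 4 share the Col-0 background, and an introgression can carry neighbouring Sf-2 DNA along with the gene. FRIGIDA raises the level of FLC, a repressor of flowering, and the Col-0 allele of FRIGIDA is inactive. No group of genotype and day had a second array. Day cannot be told apart from plant age and harvest occasion. For genes with a daily rhythm, a shift in the hour of sampling or of the peak cannot be told apart from a change in level. Comparisons with day 0 also set long days against short days, whereas days 2 and 4 were both in long days.

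As background, GI is a large nuclear and cytosolic protein that links the circadian clock to flowering. Its transcript peaks late in the light period, and the time of the peak moves with day length. GI protein stabilises the clock protein ZTL and, together with the blue-light receptor FKF1, removes the CDF repressors of CONSTANS, which lets CONSTANS activate the florigen gene FT in long days. CCL encodes a small light-regulated chloroplast protein that binds ferredoxin-NADP reductase. Its mRNA is short-lived, and its rate of decay changes over the day under control of the clock. In bulk apices, fewer cells that express a gene and less RNA per cell cannot be told apart.

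All levels below are deposited log2 values, so a difference of 1 is a doubling. The array medians lay between 5.30 and 5.36. The 5 probe sets were not alike in signal. The set 17580_at of GI averaged 7.91 over the 12 arrays, 17581_g_at averaged 6.17 and 14298_g_at averaged 5.42. The fourth, 14297_at, averaged 2.92 and stayed between 2.86 and 3.03, at the 10.7th percentile of all probe set means. It lay below the level of 3.56 that a probe set's mean had to exceed to enter the tests. CCL was measured by 16046_s_at, which averaged 8.00; the suffix s marks a set whose probes can match more than 1 sequence. Thus 4 of the 5 probe sets passed, 3 of GI and that of CCL. Levels of different probe sets are not comparable with each other, since their sets of probes differ.

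The annotation used here pairs no probe set with FLC or FRIGIDA, and their levels could not serve as a check of the genotypes. The arrays were checked for the tissue with 18 genes known from the shoot apex and young organs. Only 2 of the 18 had a probe set of their own. PHV, a gene of the upper side of organs, lay between 7.93 and 8.47 on all arrays. YAB3, a gene of the lower side, lay between 8.72 and 9.27 on 1 set, between 7.86 and 8.46 on another, and between 2.50 and 2.71 on the third. The array of FRI(Sf-2)-flc-3 on day 2 stood apart from the other 11. Its bacterial BioB hybridisation controls averaged 9.53, against 7.13 to 7.79 elsewhere, and the spread of its residuals from the additive model was 0.157, against 0.0792 to 0.112 elsewhere (scaled median absolute deviation). Results that use it are given without it as well where it matters.

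GI fell in the apices of all 4 genotypes. On 17580_at, the brightest set, FRI(Sf-2)-flc-3 measured 8.90, 7.43 and 7.02 on days 0, 2 and 4. In fri(Col)-flc-3 the same set measured 9.13, 7.87 and 7.29. FRI(Sf-2)-FLC(Col) gave 8.88, 7.84 and 7.38, and fri(Col)-FLC(Col) gave 8.53, 7.43 and 7.17. Every day 0 array was thus above every day 2 array, and every day 2 array above every day 4 array. The share of all probe sets with days separated in this way is not given, here or for the sets below. The mean change over genotypes was -1.21 ± 0.191 by day 2 and -1.64 ± 0.256 by day 4 (SD over 4 genotypes, log2), so the signal was 2.32 times lower after 2 long days and 3.12 times lower after 4.

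The set 17581_g_at gave nearly the same falls from a lower level. It measured 7.18, 5.65 and 5.46 in FRI(Sf-2)-flc-3 on days 0, 2 and 4, and 7.21, 6.21 and 5.60 in fri(Col)-flc-3. In FRI(Sf-2)-FLC(Col) it measured 7.21, 6.01 and 5.47, and in fri(Col)-FLC(Col) 6.86, 5.80 and 5.39. The days again did not overlap, though the lowest day 2 value, 5.65 on the FRI(Sf-2)-flc-3 array that stood apart, was close to the highest day 4 value of 5.60. The mean change was -1.20 ± 0.235 by day 2 and -1.64 ± 0.12 by day 4 (SD over 4 genotypes). Without the FRI(Sf-2)-flc-3 day 2 array, the day 2 change was -1.09.

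On 14298_g_at, the dimmest of the 3 sets with signal, the falls were smaller. FRI(Sf-2)-flc-3 measured 6.36, 5.25 and 4.91 on days 0, 2 and 4, and fri(Col)-flc-3 measured 6.21, 5.41 and 4.95. The values were 6.396, 5.34 and 4.86 in FRI(Sf-2)-FLC(Col) and 5.85, 4.998 and 4.52 in fri(Col)-FLC(Col). Here too no day overlapped another, and fri(Col)-FLC(Col) was lowest on each of the 3 days. The mean change was -0.95 ± 0.155 by day 2 and -1.39 ± 0.122 by day 4 (SD over 4 genotypes), or 1.94 and 2.62 times lower.

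The signal of the CCL set fell further than that of each GI set. CCL measured 9.31, 7.48 and 7.21 in FRI(Sf-2)-flc-3 on days 0, 2 and 4. In fri(Col)-flc-3 it measured 9.61, 8.25 and 7.47, the highest value of each day. FRI(Sf-2)-FLC(Col) gave 9.26, 7.53 and 7.24, and fri(Col)-FLC(Col) gave 8.89, 7.17 and 6.54, the lowest value of each day. All day 0 arrays lay above all day 2 arrays, whereas the ranges of day 2 (7.17 to 8.25) and day 4 (6.54 to 7.47) overlapped. The mean change was -1.66 ± 0.201 by day 2 and -2.15 ± 0.138 by day 4 (SD over 4 genotypes), or 3.16 and 4.45 times lower.

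**Figure D1:**
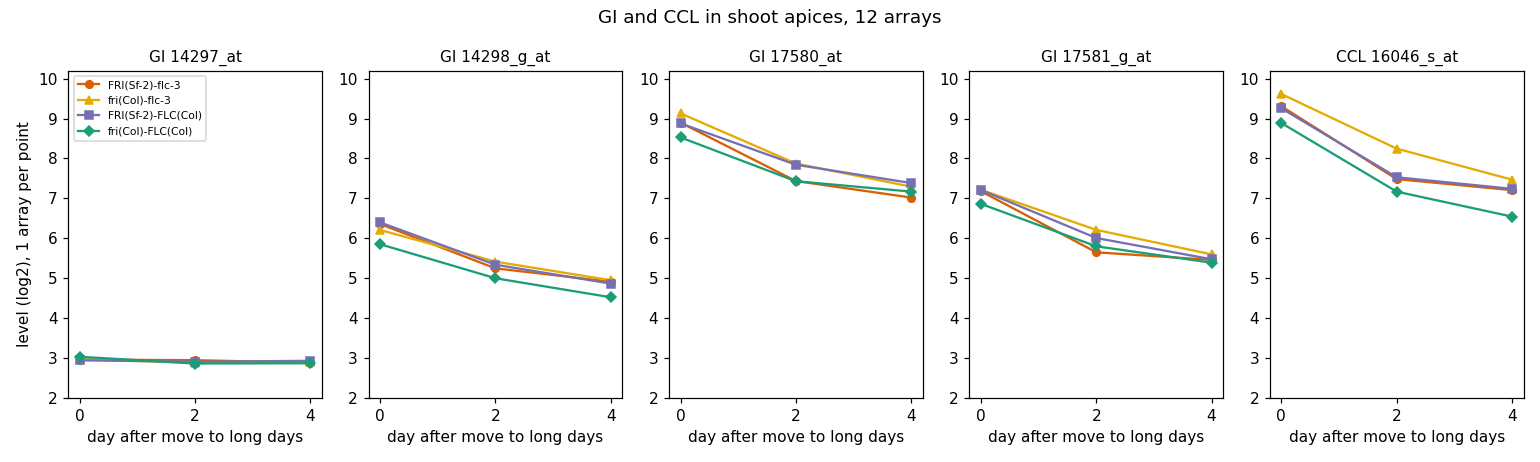
Level (log2) of the 4 GI probe sets and of CCL on days 0, 2 and 4 after the move to long days, with 1 line per genotype and 1 array per point. GI on its 3 sets with signal and CCL fall in every genotype, while 14297_at stays between 2.86 and 3.03.

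The first 2 long days held most of the fall. The change from day 0 to day 2 made up 68.3% ± 6.27 of the change from day 0 to day 4 on 14298_g_at, 74.1% ± 6.20 on 17580_at, 73.1% ± 11.4 on 17581_g_at and 77.4% ± 10.9 for CCL (SD over 4 genotypes, on the log2 scale). From day 2 to day 4 the further mean change was -0.44 ± 0.0682, -0.43 ± 0.132 and -0.44 ± 0.184 on these 3 GI sets and -0.49 ± 0.249 for CCL. These later steps were of similar size for both genes, whereas in the first 2 days CCL fell further than each of the 3 GI sets in 4 of 4 genotypes. The mean gap in the first step was 0.45 to 0.71 on the log2 scale. Gaps between probe sets also depend on how far each set compresses a change, which was not tested. The day 2 shares of FRI(Sf-2)-flc-3 rest on the array that stood apart. They were 76.8% on 14298_g_at, 88.9% on 17581_g_at and 86.8% for CCL, the highest of the 4 genotypes on each. On 17580_at its share was 78.0%, below the 80.8% of fri(Col)-FLC(Col). In the other genotypes 17581_g_at gave 62.1% to 72.1%.

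Among the 6185 probe sets tested, the median change was 0.00 by day 2 and 0.04 by day 4 (log2). Counted from the strongest fall, CCL stood at place 9 by day 2 and place 11 by day 4. The GI sets stood at places 16, 18 and 44 by day 2 (17580_at, 17581_g_at and 14298_g_at) and at places 25, 26 and 44 by day 4. Over all probe sets limma called a fall at an adjusted p under 0.05 for 5.89% by day 2, 9.49% by day 4 and 2.72% between day 2 and day 4. GI and CCL were chosen on this change, so no call is given for them. A rise by day 4 was called for 543 of the 6185 probe sets. Of the apex markers, PHV was higher on day 4 than on day 0 by 0.29 ± 0.0892 (SE, limma adjusted p = 0.0435) and YAB3 by 0.29 ± 0.0746 on its brightest set (adjusted p = 0.0171). On its other set with signal YAB3 differed by 0.24 ± 0.104 (adjusted p = 0.143), and the part of these shifts in the falls of GI and CCL was not tested.

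**Figure D2:**
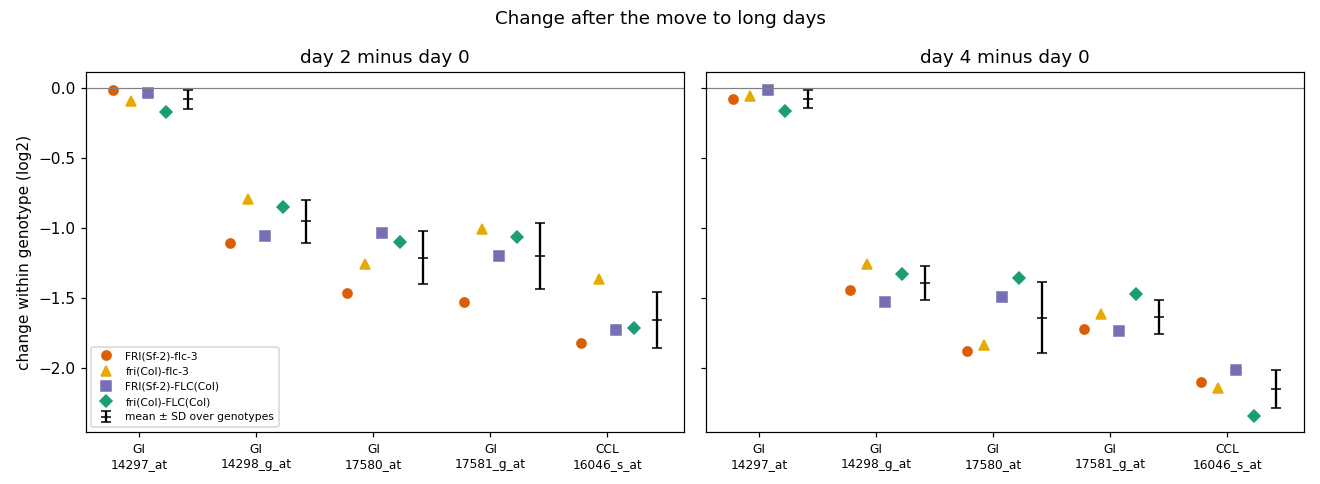
Change in level (log2) within each genotype from day 0 to day 2 (left) and from day 0 to day 4 (right), 1 symbol per genotype, with the mean ± SD over the 4 genotypes in black. By day 4 CCL lies between -2.34 and -2.02 and the 3 GI sets with signal lie between -1.88 and -1.26.

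The GI probe sets were compared for agreement beyond the shared fall by subtracting from each value the mean of its day. Over the 12 arrays, 17580_at and 17581_g_at then correlated with r = 0.83, 14298_g_at and 17581_g_at with r = 0.72, and 14298_g_at and 17580_at with r = 0.60. These sets were hybridised with the same RNA on the same arrays, so the coefficients describe these arrays only. Of them 14298_g_at and 17581_g_at carry the suffix g, and whether the sets share probes was not checked. The weak set 14297_at gave r = -0.17, -0.22 and -0.49 with 14298_g_at, 17580_at and 17581_g_at. Without that subtraction its r with the same sets was 0.67, 0.69 and 0.66. Its change by day 4 was -0.08 ± 0.0624 (SD over 4 genotypes) and negative in 4 of 4 genotypes, against mean changes of -1.39 to -1.64 on the other sets of the same gene.

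The sets disagreed in part on which genotype fell furthest. By day 4 the largest GI fall was in FRI(Sf-2)-FLC(Col) on 14298_g_at (-1.53) and on 17581_g_at (-1.73), but in FRI(Sf-2)-flc-3 on 17580_at (-1.88). The smallest was in fri(Col)-FLC(Col) on 17580_at (-1.36) and on 17581_g_at (-1.47), but in fri(Col)-flc-3 on 14298_g_at (-1.26). For CCL the order differed again, with the largest fall in fri(Col)-FLC(Col) (-2.34) and the smallest in FRI(Sf-2)-FLC(Col) (-2.02).

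Whether the fall differed in FRI(Sf-2)-FLC(Col), the genotype with active FRIGIDA and intact FLC, was tested against the mean fall of the other 3 genotypes in a limma model that gave it its own day terms. By day 2 its change differed by -0.14 ± 0.204 on 14298_g_at, 0.24 ± 0.242 on 17580_at, -0.0027 ± 0.242 on 17581_g_at and -0.09 ± 0.24 for CCL (SE, log2). None of the 4 passed (limma adjusted p = 0.999 for each), none had an unadjusted p under 0.05, and the background was 0% of all probe sets called, with 105 of 6185 at an unadjusted p under 0.05. By day 4 the differences were -0.19, 0.20, -0.13 and 0.18 in the same order, with none called (limma adjusted p = 0.9999 for each), against 0.0162% of all probe sets, and none had an unadjusted p under 0.05, against 119 of 6185. For CCL the 95% interval of the day 4 difference ran from -0.35 to 0.71, and for 17580_at from -0.34 to 0.73.

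Loss of FLC was first compared in plants with the inactive FRIGIDA of Col-0, as fri(Col)-flc-3 against fri(Col)-FLC(Col). All 3 GI sets with signal were higher in fri(Col)-flc-3 on each of the 3 days. On 14298_g_at the means over the days were 5.52 in fri(Col)-flc-3 and 5.12 in fri(Col)-FLC(Col), with daily differences of 0.36, 0.42 and 0.43. On 17580_at the means were 8.10 and 7.71 in the same order of genotypes, with daily differences of 0.60, 0.44 and 0.12. On 17581_g_at they were 6.34 and 6.02, with daily differences of 0.35, 0.41 and 0.21.

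The fitted differences were 0.40 ± 0.0927, 0.39 ± 0.112 and 0.32 ± 0.109 (SE, log2), or 1.25-fold to 1.32-fold higher in fri(Col)-flc-3. None of the 3 passed after adjustment over all probe sets (limma adjusted p = 0.9999 for each), though all 3 had an unadjusted p under 0.05 (0.00102, 0.00471 and 0.0118), as did 153 of all 6185 probe sets. These 3 sets report 1 transcript from the same arrays and are not 3 observations. The call held for 0.0162% of all probe sets in this comparison.

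CCL itself was higher in fri(Col)-flc-3 than in fri(Col)-FLC(Col) by 0.73, 1.08 and 0.93 on days 0, 2 and 4. The mean of 0.91 ± 0.176 (SD over 3 days) corresponds to 1.88-fold. Earlier results of these data had singled out CCL by this difference, so it is given without a test. It ranged from 0.78 to 0.98 when any 1 of the 12 arrays was left out.

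With active FRIGIDA, loss of FLC was measured as FRI(Sf-2)-flc-3 against FRI(Sf-2)-FLC(Col), and neither gene passed the test after adjustment. In FRI(Sf-2)-flc-3 CCL averaged 8.00, against 8.01 in FRI(Sf-2)-FLC(Col), a difference of -0.01 ± 0.113 (SE) with a 95% interval from -0.25 to 0.24. On 14298_g_at GI averaged 5.50 in FRI(Sf-2)-flc-3 and 5.53 in FRI(Sf-2)-FLC(Col), a difference of -0.03 ± 0.0927. On 17580_at it averaged 7.78 in FRI(Sf-2)-flc-3 and 8.03 in FRI(Sf-2)-FLC(Col), a difference of -0.25 ± 0.112, and on 17581_g_at 6.09 and 6.23 in the same order, a difference of -0.13 ± 0.109. None of the 4 passed (limma adjusted p = 0.407 to 0.985), against 0.146% of all probe sets, and of the 4 only 17580_at had an unadjusted p under 0.05, as did 729 of all 6185 probe sets. Without the FRI(Sf-2)-flc-3 day 2 array the differences were 0.08 for CCL, 0.03 on 14298_g_at, -0.19 on 17580_at and -0.01 on 17581_g_at.

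The interaction asks whether the effect of losing FLC differs between the FRIGIDA alleles, as the difference with FRI(Sf-2) minus that with fri(Col). It was negative for all 4 probe sets, at -0.43 ± 0.131 on 14298_g_at, -0.64 ± 0.159 on 17580_at, -0.46 ± 0.154 on 17581_g_at and -0.92 ± 0.159 for CCL (SE, log2). Leaving out any 1 array, the FRI(Sf-2)-flc-3 day 2 array among them, gave -0.49 to -0.37 on 14298_g_at and -0.75 to -0.55 on 17580_at. On 17581_g_at it gave -0.55 to -0.33, and for CCL -0.99 to -0.79. None of the 3 GI sets passed after adjustment (limma adjusted p = 0.503, 0.34 and 0.565), against 0.0323% of all probe sets, though all 3 had an unadjusted p under 0.05, as did 449 of all 6185 probe sets. The value for CCL contains the difference between fri(Col)-flc-3 and fri(Col)-FLC(Col) on which it had been singled out and is therefore given without a test.

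**Figure D3:**
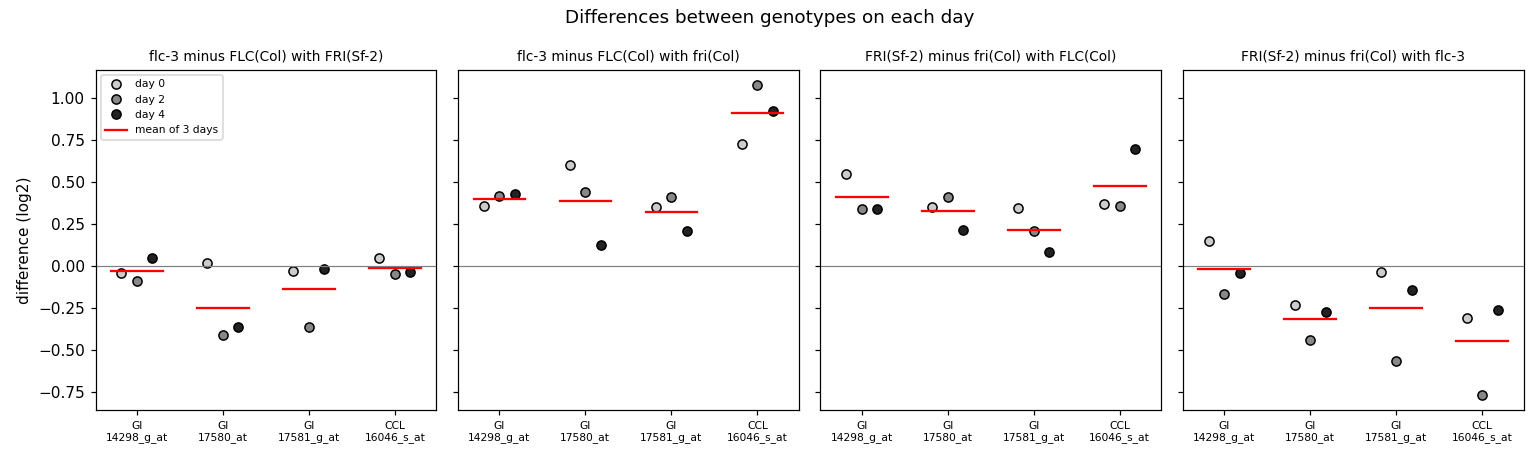
Differences in level (log2) between pairs of genotypes for the 3 GI probe sets with signal and CCL, with 1 point for each of days 0, 2 and 4 and a red line at their mean. The 3 daily differences lie above 0 for all 4 probe sets in fri(Col)-flc-3 minus fri(Col)-FLC(Col) and in FRI(Sf-2)-FLC(Col) minus fri(Col)-FLC(Col).

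The introgressed FRIGIDA allele was compared with FLC present, as FRI(Sf-2)-FLC(Col) against fri(Col)-FLC(Col). CCL averaged 8.01 in FRI(Sf-2)-FLC(Col) and 7.53 in fri(Col)-FLC(Col), and was higher on each day, by 0.37, 0.36 and 0.70. GI was higher on each day too, with mean differences of 0.41 ± 0.0927 on 14298_g_at, 0.33 ± 0.112 on 17580_at and 0.21 ± 0.109 on 17581_g_at (SE, log2). The CCL difference was 0.48 ± 0.113. None of the 4 passed (limma adjusted p = 0.17 on 14298_g_at, 0.187 for CCL, 0.508 on 17580_at and 0.773 on 17581_g_at), against 0.178% of all probe sets, and 3 of the 4 had an unadjusted p under 0.05, as did 425 of all 6185 probe sets. This comparison and the FLC comparison with inactive FRIGIDA use the same fri(Col)-FLC(Col) arrays, so that their shared direction is not a second observation. CCL had been singled out on a difference that contains those arrays, so its p-value here is not free of that choice.

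Without FLC, as FRI(Sf-2)-flc-3 against fri(Col)-flc-3, the differences ran the other way. CCL averaged 8.00 in FRI(Sf-2)-flc-3 and 8.44 in fri(Col)-flc-3, and was lower on each day, with differences of -0.31, -0.76 and -0.26. On 17580_at GI differed by -0.23, -0.44 and -0.27 on days 0, 2 and 4, and on 17581_g_at by -0.04, -0.56 and -0.14. On 14298_g_at the daily differences were 0.15, -0.17 and -0.04, without a common sign. The fitted differences were -0.44 ± 0.113 for CCL, -0.31 ± 0.112 on 17580_at, -0.25 ± 0.109 on 17581_g_at and -0.02 ± 0.0927 on 14298_g_at (SE). None passed (limma adjusted p = 0.343, 0.467, 0.541 and 0.961), against 0.0808% of all probe sets. Of the 4, 3 had an unadjusted p under 0.05 (CCL, 17580_at and 17581_g_at), as did 556 of all 6185 probe sets. CCL had been singled out on a difference that contains the fri(Col)-flc-3 arrays, so its p-value is not free of that choice. The largest daily difference of CCL, 17580_at and 17581_g_at fell on day 2, where the FRI(Sf-2)-flc-3 array stood apart. Without that array the difference was -0.12 on 17581_g_at, -0.26 on 17580_at and -0.36 for CCL.

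Over the 3 days the order of the CCL means was therefore 8.44 in fri(Col)-flc-3, 8.01 in FRI(Sf-2)-FLC(Col), 8.00 in FRI(Sf-2)-flc-3 and 7.53 in fri(Col)-FLC(Col). The middle pair did not differ beyond its error. On 17580_at the order was 8.10 in fri(Col)-flc-3, 8.03 in FRI(Sf-2)-FLC(Col), 7.78 in FRI(Sf-2)-flc-3 and 7.71 in fri(Col)-FLC(Col), and 17581_g_at gave the same order. On 14298_g_at FRI(Sf-2)-FLC(Col) (5.53), fri(Col)-flc-3 (5.52) and FRI(Sf-2)-flc-3 (5.50) lay together, above fri(Col)-FLC(Col) (5.12). The wild type thus had the lowest 3-day mean on all 4 probe sets. Within single days it was lowest on each day for CCL and 14298_g_at, but FRI(Sf-2)-flc-3 was lower on day 4 on 17580_at and on day 2 on 17581_g_at.

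GI and CCL also varied together among the genotypes. With the mean of each day removed, the average of the 3 GI sets correlated with CCL over the 12 arrays at r = 0.83 and rho = 0.73. Without the 2 arrays farthest from the GI median, those of fri(Col)-FLC(Col) on days 0 and 2, r was 0.78 and rho 0.61 over 10 arrays. These points share arrays between the 2 genes and genotypes between the days, so the coefficients are a description without a p-value. The coefficients also contain the difference between fri(Col)-flc-3 and fri(Col)-FLC(Col) on which CCL had been singled out. Arrays of both genotypes remain among the 10.

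**Figure D4:**
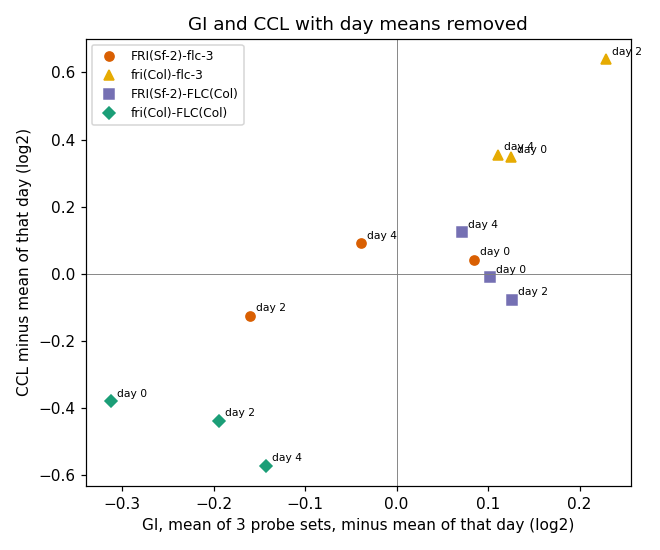
CCL against the mean of 3 GI probe sets (log2), each with the mean of its day subtracted, 1 point per array. The 3 fri(Col)-FLC(Col) arrays lie low on both axes and the 3 fri(Col)-flc-3 arrays lie high on both. CCL had been singled out on the difference between these genotypes.

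The probe sets most like each gene were found among the 2732 others that had 1 gene name and passed the level filter, by Pearson correlation over the 12 arrays. Such a correlation mostly follows the days. For GI the 5 most alike were AT4G16190, a papain-like cysteine protease gene (r = 0.964), AT2G12400 (0.961), PORB (0.958), AT1G21670 (0.957) and AT3G26580 (0.956). PORB encodes a light-dependent enzyme of chlorophyll synthesis. For CCL they were AT2G12400 (0.962), PORB (0.956), AT4G14230 (0.955), AT3G26580 (0.946) and AT4G16190 (0.932). The lists share 4 of their 5 probe sets. In all, 19 probe sets reached r above 0.9 with GI and 12 with CCL, and those 12 were all among the 19. AT4G16190 has another probe set, which correlated with GI at 0.938 and with CCL at 0.886. The sets of PORB and AT3G26580, like those of TAPX and RCA named below, carry the suffix s, so their probes can match more than 1 sequence.

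The fitted changes of these genes were smaller than that of CCL. By day 4 they were -1.54 for AT4G16190, -1.21 for AT1G21670, -1.15 for AT3G26580, -0.80 for AT4G14230, -0.64 for PORB and -0.56 for AT2G12400 (log2). By day 2 they were -1.19 for AT4G16190, -0.83 for AT1G21670, -1.01 for AT3G26580, -0.73 for AT4G14230, -0.58 for PORB and -0.54 for AT2G12400, so AT4G14230, PORB and AT2G12400 changed little further on average from day 2 to day 4.

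With the day means removed, the probe sets most like GI were TAPX (r = 0.886), which encodes the thylakoid ascorbate peroxidase, PORB (0.864) and THIC (0.849), an enzyme of thiamine synthesis. Those most like CCL were AT2G12400 (0.849), THIC (0.826) and PSBW (0.807), a photosystem II subunit. TAPX and THIC did not share the fall, with fitted changes by day 2 of 0.13 and -0.02. Only PORB for GI and AT2G12400 for CCL were among the 5 most alike by both measures.

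**Figure D5:**
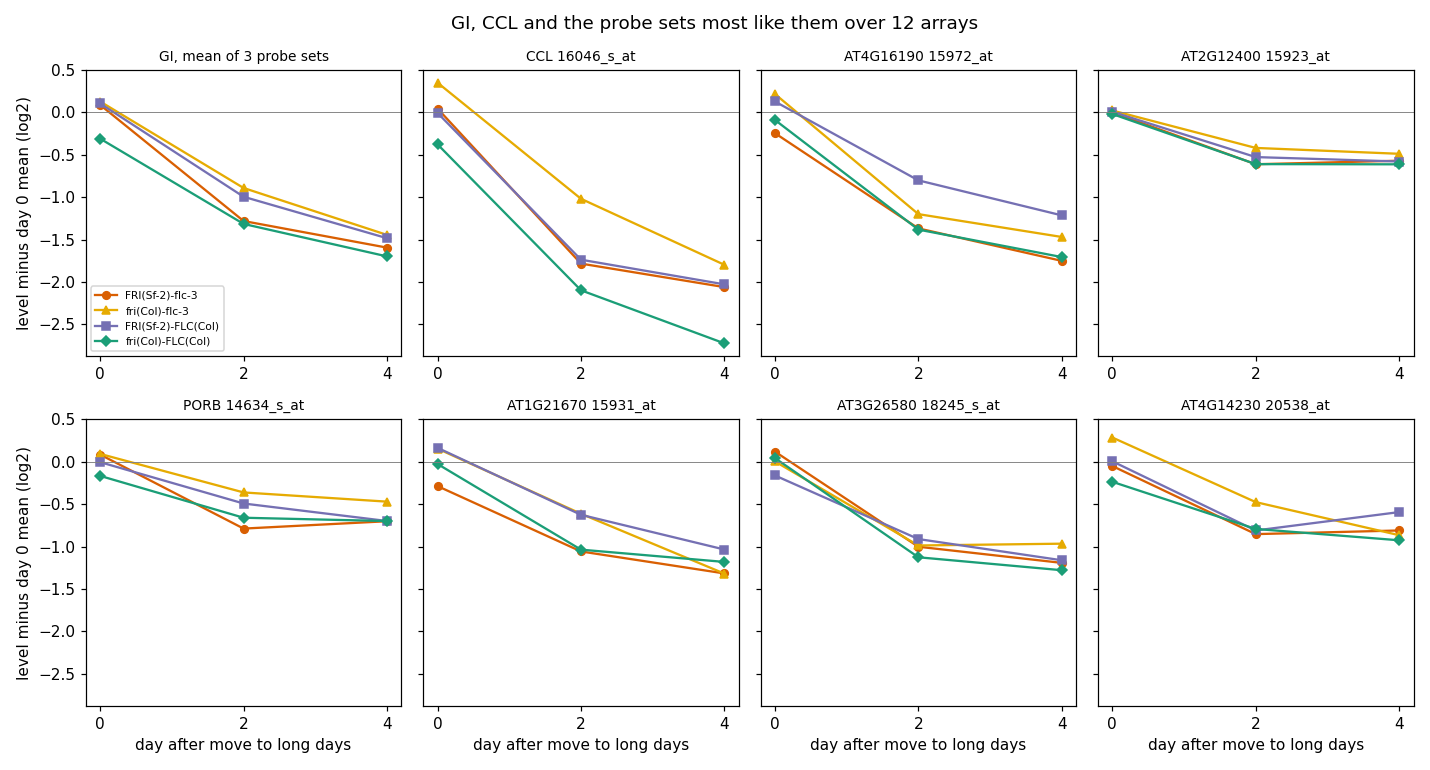
Level minus the day 0 mean (log2) of the mean of 3 GI probe sets, of CCL and of the 6 probe sets most like either over the 12 arrays, by day, with 1 line per genotype. AT4G16190 falls by a size near that of GI, while PORB, AT2G12400 and AT4G14230 fall less and, on average, mostly by day 2.

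Of 60 other genes of the clock, the photoperiod pathway, light signalling, clock output and the partners of CCL, 3 had a probe set of their own. The 20 listed clock genes, 12 photoperiod genes and 13 genes of light perception and signalling had none, so the clock itself is not analysed here by name. RCA, which encodes Rubisco activase and has a rhythmic transcript, averaged 10.86 ± 0.118, 11.004 ± 0.233 and 10.53 ± 0.125 on days 0, 2 and 4 (SD over 4 genotypes). Its change was 0.14 ± 0.106 by day 2 (limma adjusted p = 0.463) and -0.33 ± 0.106 by day 4 (adjusted p = 0.0511), and -0.47 ± 0.106 from day 2 to day 4, where the fall passed (adjusted p = 0.0301). TROL, which tethers ferredoxin-NADP reductase to the thylakoid, the enzyme that CCL protein binds, averaged 8.79 ± 0.102, 8.86 ± 0.132 and 8.77 ± 0.116 on days 0, 2 and 4, with no step called (limma adjusted p = 0.749 by day 2, 0.917 by day 4 and 0.657 between them). COR28, a cold-regulated gene under clock control, lay between 2.41 and 2.87 and was below the filter. Thus of the 2 genes tested, 1 fell and 0 rose between day 2 and day 4. Over all 6185 probe sets, 168 (2.72%) were called lower and 101 higher in that step. Neither gene passed for day 2 or day 4 against day 0, where 661 and 1130 of all probe sets were called in either direction.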

How the data were processed

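Levels are the authors' deposited log2 values, spanning 2.12 to 13.18 and used without rescaling. No label names their scale, which was inferred from that span. How the authors normalized them is not given in the sources consulted. Genotype and day came from the sample titles. Of 8297 probe sets, 50 controls were left out of the tests. The platform annotation gave 1 gene for 3794 of the other 8247, and 3784 of these matched the RefSeq gene table of TAIR10.1 (array and table name no common build, so no coordinates are given).

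Probe sets with a mean above the 25th percentile (3.56) entered a two-sided limma fit (version 3.58.1, R 4.3.3, eBayes with a trend), with Benjamini-Hochberg adjustment over 6185 probe sets at 0.05. Genotype and day entered as additive terms (6 residual degrees of freedom, 5.93 from the prior), so its error mixes noise of single arrays with differences in the day response between genotypes, and p-values measure that spread only. A second model gave FRI(Sf-2)-FLC(Col) its own day terms (4 residual degrees of freedom). The additive model was tested on simulated data for day 2 minus day 0 and for loss of FLC with fri(Col). The second model was not tested in this way. The number of arrays limits the precision.

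Day changes are differences within a genotype, averaged over the 4 genotypes. Named genes are the members, the 5 probe sets most like each gene over the 12 arrays, and every listed pathway gene with its own probe set; probe sets most alike with day means removed were an alternative. TAPX, THIC and PSBW were named from that alternative after their values were seen. The members and gene lists were chosen with earlier results of these data known. Alternatives were median centring or quantile normalization, a variance prior that was robust or had no trend, the level filter left out or raised to the 50th percentile, only the 6 arrays compared, leaving out each array, and a rank correlation.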

Additional observations from a re-analysis of the deposited data

How the results depend on the processing

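The 15 day changes of the 5 probe sets gave 150 values under other normalizations or without 1 array, and each stayed within 1 SD over genotypes of the value reported. Of 467 alternative values for the 26 tested genotype and day-response comparisons, 450 kept their direction, and none of the 467 passed the threshold. The 37 alternative values of the 2 CCL differences given without a test kept their sign and stayed within 1 SD over days. The other 17 of the tested values changed sign, all for differences close to 0. With quantile normalization these were flc-3 minus FLC(Col) with FRI(Sf-2) for CCL (0.0318), FRI(Sf-2) minus fri(Col) with flc-3 on 14298_g_at (0.0017) and the day 2 response of FRI(Sf-2)-FLC(Col) on 17581_g_at (0.014). With median centring the first 2 were 0.0031 and 0.0097. Leaving out 1 array gave -0.0692 to 0.0757 for that CCL difference and -0.0747 to 0.0290 for the same comparison on 14298_g_at. It gave -0.0843 to 0.0382 for FRI(Sf-2) minus fri(Col) with flc-3 on 14298_g_at, and for the day 2 response -0.14 to 0.0979 on 17581_g_at and -0.21 to 0.0307 for CCL. Without FRI(Sf-2)-FLC(Col) day 0 the day response could not be estimated.

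The numbers of probe sets called ranged over the alternatives from 2 to 30 (9 as reported) for loss of FLC with FRI(Sf-2), 0 to 2 (1) for loss of FLC with fri(Col), 6 to 18 (11) for the Sf-2 allele with FLC(Col), 2 to 11 (5) for the Sf-2 allele with flc-3 and 0 to 9 (2) for the interaction. They ranged from 0 to 1 (0) and 0 to 2 (1) for the day 2 and day 4 responses. For both directions together they were 422 to 709 (661) for day 2, 791 to 1454 (1130) for day 4 and 113 to 269 (269) between them. By rank correlation 1 of the 5 probe sets most like GI and 2 of those most like CCL were again among the first 5. No paired analysis was possible because each genotype and day has 1 array, so that there are no replicate numbers to pair; the day term of the model compares genotypes within days.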
